A study of Homo sapiens with 9 samples.

Results

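The 40 genes described here encode RNA polymerase I, the factors that process pre-ribosomal RNA and proteins that define the nucleolus. They were chosen by name, as a fixed list, with no measured value in the rule, though with earlier results of these data known. All 40 were found among the 26475 gene symbols of the count table, and all 40 were among the 16417 genes with enough reads to be tested. A375, an established human melanoma cell line, was exposed for 24 h to the vehicle DMSO, to 5 µM TP-472 or to 10 µM TP-472, a small molecule that binds the bromodomains of BRD9 and BRD7, which are subunits of SWI/SNF chromatin remodelling complexes. The labels name no transgene or deletion, each group had 3 RNA-seq libraries, and all 9 libraries came from this 1 line. The libraries held 42483091 to 51298130 expected counts each, and expression is given as CPM, the field's unit of counts scaled to a common library total with TMM-scaled library sizes, so each value is a share of a library and not an amount per cell. In such bulk libraries, fewer cells with a transcript and less of the transcript per cell cannot be told apart.

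Ribosome biogenesis starts in the nucleolus, where RNA polymerase I transcribes the ribosomal DNA repeats into a long precursor RNA. Small nucleolar ribonucleoproteins (snoRNPs) modify this precursor, and a large set of processing and assembly factors cut and fold it into the small and the large ribosomal subunit. The pathway is among the main users of energy in a growing cell and is a well-known target of the MYC transcription factor.

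The label of the cells was checked against lineage markers. SOX10, the neural crest and melanocyte factor, lay between 363 and 426 CPM in the 9 libraries, and MITF between 23.3 and 35.9 CPM. The pigment gene TYR was at 0 in every library, DCT reached at most 0.0192 CPM, MLANA at most 0.346 CPM and PMEL at most 2.87 CPM. The markers of dedifferentiated melanoma ranged from 391 to 529 CPM for AXL, from 33.7 to 86.2 CPM for NGFR and from 12.4 to 53.0 CPM for EGFR, and AXL and NGFR were called lower at both doses against DMSO (EGFR too without the library named next). Their part in the results on the members was not tested. Among leukocyte markers, CD3E was at 0 in every library, PTPRC reached at most 0.537 CPM and LYZ lay between 4.89 and 6.26 CPM. One library, replicate 1 at 10 µM, stood apart from the rest. Its log2 CPM correlated with the other 2 libraries of its group at 0.946 and 0.948 (across genes, which are not independent replicates), against 0.972 to 0.990 for the other 7 pairs within groups, and the counts of called members over the 40 genes are therefore also given without it. The share of counts on ribosomal RNA symbols ran from 8.79% to 10.9% in the DMSO libraries, from 10.6% to 16.6% with 5 µM and from 8.20% to 19.9% with 10 µM, and its lowest value of all 9 was in that library.

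At 10 µM against DMSO, 19 of the 40 genes rose and 1 fell. With p-values adjusted by Benjamini-Hochberg over all genes tested (adjusted p under 0.05), edgeR's quasi-likelihood test called 47.5% of the members higher, where it called 16.4% of all genes higher, and it called 2.50% of the members lower, where it called 18.0% of all genes lower. The genes that rose were POLR1C, RRN3, TAF1D, NOP56, NOP58, DKC1, GAR1, NHP2, RRP9, RRP12, WDR43, BYSL, PNO1, PES1, NOP2, NOP16, RRS1, BRIX1 and NIP7, and the gene that fell was UBTF. The changes were small. The median log2 fold change of the 40 genes was 0.24, against 0.01 for all genes tested, and 4 of the 40 (RRP9, PNO1, NOP2 and NOP16) passed the test with a rise of at least 1.5-fold, as 8.57% of all genes did. In the fit without replicate 1 at 10 µM, 2 members did so, PNO1 and WDR43 (8.17% of all genes). As far as the labels go, the p-values measure the spread between these libraries, described as biological replicates with no detail of how the cultures were separated.

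At 5 µM against DMSO, PNO1, NOP2 and RRS1 rose, which is 3 of 40 members beside 4.40% of all genes called higher. edgeR's quasi-likelihood test called 0 members lower, beside 5.81% of all genes, with 2 members lower at an unadjusted p under 0.05, 1 called lower by DESeq2 and 0 by limma-voom. The median log2 fold change was 0.12. Between the doses, TAF1D, PNO1 and NOP2 were higher at 10 µM than at 5 µM (3 of 40, beside 2.87% of all genes). No member was called lower at 10 µM than at 5 µM (0 of 40, beside 5.53% of all genes) by edgeR's quasi-likelihood test, with 1 lower at an unadjusted p under 0.05, 1 called by DESeq2 and 0 by limma-voom.

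Without replicate 1 at 10 µM the counts of calls grew, for the members and for all genes. At 5 µM against DMSO, where that library is in neither group but enters the shared estimate of the spread, 22 members were called higher (16.5% of all genes) and 3 lower, FBL, NPM1 and POLR1D (17.6% of all genes). At 10 µM against DMSO, 25 were called higher (23.0% of all genes) and 4 lower, UBTF, FBL, NPM1 and POLR1D (25.8% of all genes). All 19 genes called higher with the library were also called higher without it, and DDX21, POLR1A, POLR1B, RRP1B, TAF1C and UTP20 were added. Between the doses, 12 members were called higher at 10 µM (8.80% of all genes) and 2 lower, POLR1D and UBTF (15.4% of all genes).

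The order of the libraries gave a second view that uses no test but the same TMM-scaled CPM. In 18 of the 40 genes all 6 TP-472 libraries lay above all 3 DMSO libraries, where 14.9% of all genes did so, and in 0 genes did all 6 lie below, where 18.3% of all genes did so. In 13 genes every 5 µM library lay above DMSO and every 10 µM library above 5 µM, where 5.68% of all genes showed this order. The reverse order was seen in 0 members and in 9.24% of all genes. Without replicate 1 at 10 µM, the other 5 TP-472 libraries lay above DMSO in 25 members (19.0% of all genes) and below it in 3, POLR1D, NPM1 and FBL (21.7%). The stepwise order then held upward in 19 members (8.78% of all genes) and downward in 1, POLR1D (12.9%). With all libraries, the 13 genes with the stepwise order were POLR1C, NOP56, NOP58, DKC1, NHP2, RRP9, RRP12, BYSL, PNO1, NOP2, NOP16, BRIX1 and NIP7. Library by library, the median of the 40 log2 ratios to the DMSO mean was 0.12, 0.11 and 0.14 at 5 µM and 0.22, 0.24 and 0.24 at 10 µM, so the 3 libraries of a dose lay close together on this measure and the doses did not overlap. By role, replicate 1 at 10 µM could lie far from replicates 2 and 3 in either direction. The medians were 0.64 beside 0.24 and 0.31 for the snoRNP core proteins. For the RNA polymerase I subunits they were -0.08 beside 0.25 and 0.32, and for the small-subunit factors 0.36 beside 0.32 and 0.33.

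**Figure D1:**
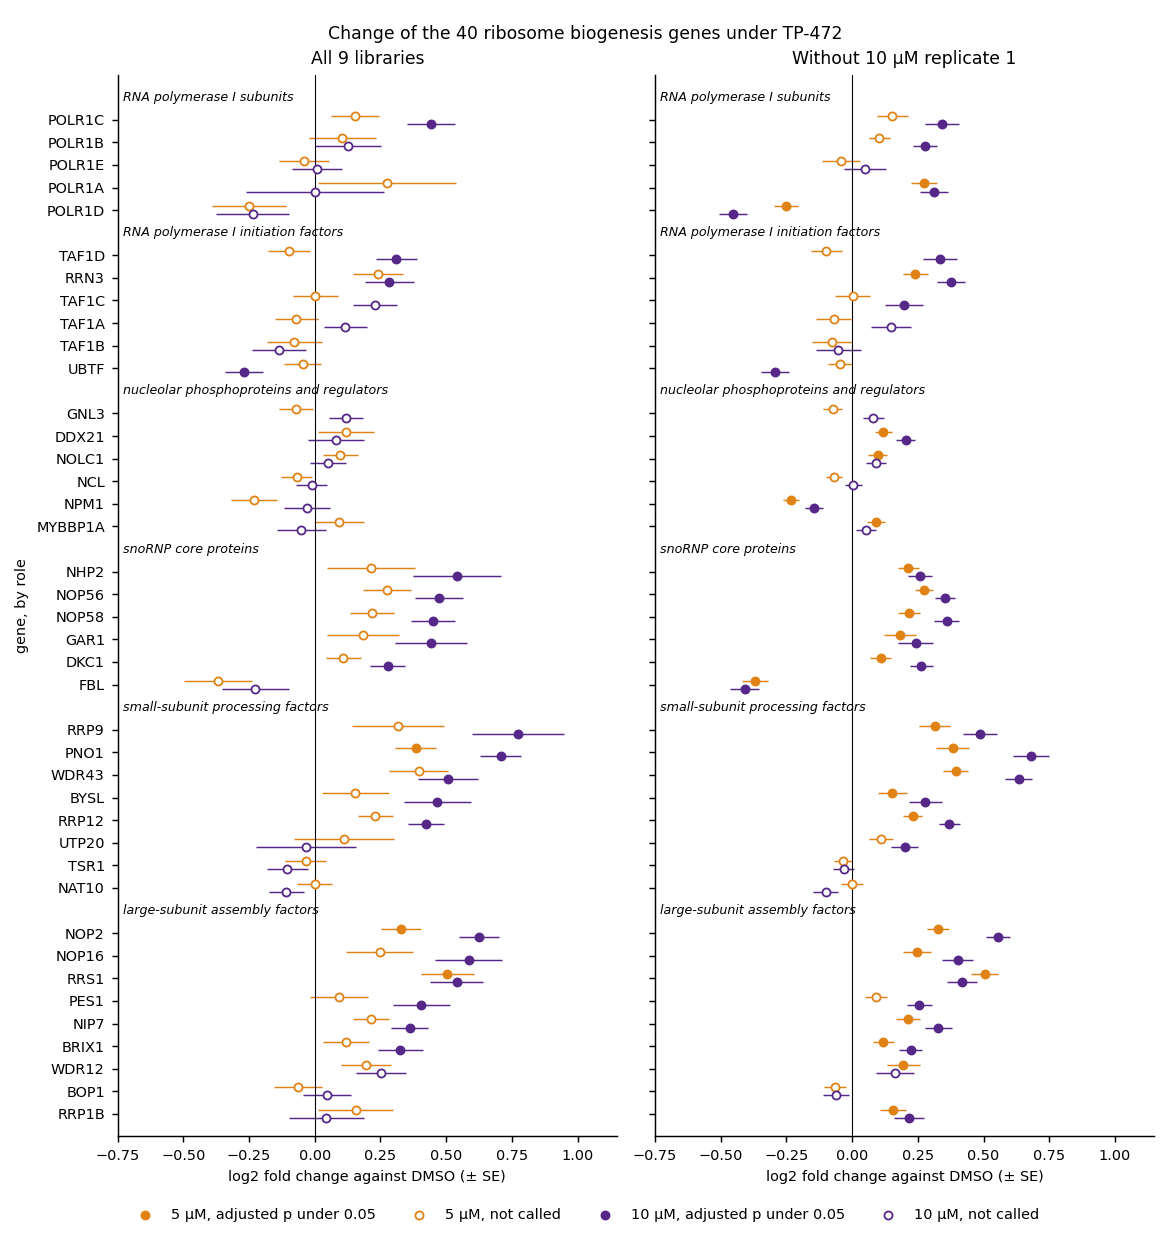
Log2 fold change (± SE) of each of the 40 genes at 5 µM and 10 µM TP-472 against DMSO (x axis), with the genes ordered by role (y axis), for all 9 libraries at left and without 10 µM replicate 1 at right; filled points passed an adjusted p of 0.05. Most points of the snoRNP core, small-subunit and large-subunit genes lie right of 0, with 16 of the 19 genes called higher at 10 µM in these 3 groups, while UBTF alone is filled at left of 0 with all libraries.

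The members were also compared at the sequence level, because the E-box CACGTG is the letters that MYC and MAX are known to bind and more of the members rose than fell. The RefSeq promoter table (GRCh38.p14, 250 bases before to 50 after a start) held 33 of the 40 genes, and POLR1E, NOLC1, NOP58, RRP12, BOP1, RRS1 and RRP1B were not among them. CACGTG, which reads the same on both strands, was found in at least 1 window of 13 of the 33 genes (39.4%), against 12.2% of the 11784 genes tested that have a window. It was in 30 of the 117 genes with a window (25.6%) from the 5 other biogenesis lists described further on, and in 6.35% of the cytosolic ribosomal protein genes. Counted by window, it was in 31.0% of the 42 windows of members and in 9.04% of the 17115 windows of all genes tested. Among the members, 7 of the 16 called higher at 10 µM held it and 6 of the 17 others did, so the letters were present in genes with and without a call. These counts, without replicate 1 at 10 µM, were 9 of 21 and 4 of 12. The 30 bases around the motif are shown for all 13 genes, 5′ to 3′ on the strand of the gene with the motif in capitals. The first 7 are the genes that rose at 10 µM, and the last 6 held the same letters and were not called with all libraries. Of those 6, DDX21 and UTP20 were called higher and FBL lower without replicate 1 at 10 µM.
RRP9, chr3:51941892-51941921, minus strand: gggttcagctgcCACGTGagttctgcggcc
PNO1, chr2:68157885-68157914, plus strand: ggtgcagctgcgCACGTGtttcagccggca
NOP2, chr12:6568242-6568271, minus strand: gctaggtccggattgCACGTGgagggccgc
WDR43, chr2:28894658-28894687, plus strand: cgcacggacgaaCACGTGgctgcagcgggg
BYSL, chr6:41921515-41921544, plus strand: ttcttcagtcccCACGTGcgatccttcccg
GAR1, chr4:109815781-109815810, plus strand: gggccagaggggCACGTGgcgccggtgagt
PES1, chr22:30591880-30591909, minus strand: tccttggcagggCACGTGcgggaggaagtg
GNL3, chr3:52686026-52686055, plus strand: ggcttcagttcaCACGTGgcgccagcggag
DDX21, chr10:68956604-68956633, plus strand: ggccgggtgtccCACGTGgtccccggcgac
UTP20, chr12:101280083-101280112, plus strand: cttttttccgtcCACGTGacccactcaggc
MYBBP1A, chr17:4555340-4555369, minus strand: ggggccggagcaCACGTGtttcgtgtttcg
NAT10, chr11:34105602-34105631, plus strand: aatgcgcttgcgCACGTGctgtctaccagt
FBL, chr19:39846356-39846385, minus strand: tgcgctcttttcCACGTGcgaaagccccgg

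In these windows the motif sat close to the start. Counting the first base after the upstream part as 1 and the base before it as -1, the first base of CACGTG was at -5 in RRP9, 10 in PNO1, 36 in NOP2, 4 in WDR43, 29 in BYSL, 32 in GAR1 and 14 in PES1. In the genes not called with all libraries it was at 7 in GNL3, -31 in DDX21, -10 in UTP20, 28 in MYBBP1A, -15 in NAT10 and 7 in FBL, so in these 13 windows the places in the genes with and without a call overlapped. A match of letters describes the sequence, and binding was not measured here.

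RNA polymerase I itself was represented by 5 subunits, of which POLR1C rose at 10 µM. POLR1C (chr6:43509702-43562419, plus strand; GENCODE 29 on GRCh38), a subunit shared by RNA polymerases I and III, was at 29.7, 29.8 and 29.3 CPM in the DMSO libraries, 32.8, 32.4 and 33.7 CPM at 5 µM and 45.6, 36.3 and 38.96 CPM at 10 µM. Every library of a dose lay above every library of the dose below. The log2 fold change ± SE at 10 µM was 0.44 ± 0.09 (adjusted p = 0.00461) by edgeR's quasi-likelihood test. In the annotation, 18.2% of its exonic bases are also covered by genes on the opposite strand, and the strand setting of the counting was not stated.

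POLR1D (chr13:27620742-27744237, plus strand), the partner of POLR1C in both polymerases, was at 95.1, 93.05 and 92.2 CPM in the DMSO libraries, 74.2, 80.5 and 81.02 CPM at 5 µM and 101, 69.5 and 67.2 CPM at 10 µM. All 3 libraries at 5 µM and 2 at 10 µM lay below DMSO, and replicate 1 at 10 µM lay above it. By edgeR's quasi-likelihood test the log2 fold change at 10 µM was -0.24 ± 0.14 (adjusted p = 0.222), and without that library it was -0.45 ± 0.05 (adjusted p = 2.97e-06). POLR1B (chr2:112541915-112577150, plus strand), the second-largest subunit, was at 83.6, 84.9 and 83.4 CPM in the DMSO libraries, 92.01, 88.2 and 90.7 CPM at 5 µM and 70.7, 99.7 and 104 CPM at 10 µM. Here the same library was the lowest of all 9 while the other 5 TP-472 libraries were above DMSO, and the log2 fold change at 10 µM was 0.13 ± 0.13 (adjusted p = 0.484) with it and 0.28 ± 0.05 (adjusted p = 0.000106) without it by edgeR's test.

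POLR1A, the largest subunit, showed the widest gap and was described after its values were seen. It was at 50.5, 53.9 and 50.03 CPM in the DMSO libraries, 60.9, 64.2 and 61.7 CPM at 5 µM and 26.4, 63.6 and 64.5 CPM at 10 µM. The 5 other TP-472 libraries stood above DMSO and did not overlap with it, and replicate 1 at 10 µM stood far below. The log2 fold change at 10 µM was 0.00052 ± 0.26 with the library and 0.31 ± 0.05 (adjusted p = 0.000202) by edgeR's quasi-likelihood test without it. POLR1E had a log2 fold change of 0.01 at 10 µM and was not called in either fit. Over the 5 subunits the median log2 fold change at 10 µM was 0.01 with all libraries and 0.28 without that one.

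Of the 6 initiation factors, TAF1D and RRN3 rose and UBTF fell at 10 µM. TAF1D (chr11:93729948-93784391, minus strand), a subunit of the selectivity factor that places RNA polymerase I on its promoter, was at 50.9, 49.8 and 43.8 CPM in the DMSO libraries, 43.9, 45.6 and 45.7 CPM at 5 µM and 57.4, 61.7 and 60.3 CPM at 10 µM. The 5 µM libraries overlapped DMSO and the 10 µM libraries lay above both. For TAF1D the log2 change was -0.10 ± 0.08 at 5 µM, 0.31 ± 0.08 (adjusted p = 0.0133) at 10 µM and 0.41 ± 0.08 (adjusted p = 0.0135) between the doses (edgeR's quasi-likelihood test). TAF1D hosts snoRNAs within its annotated span, and 11.2% of its exonic bases are shared with other genes on its own strand.

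UBTF (chr17:44205033-44221626, minus strand), which coats active ribosomal DNA, was at 139, 141 and 145 CPM in the DMSO libraries, 140.1, 140.0 and 132 CPM at 5 µM and 121, 109 and 123 CPM at 10 µM. Its 10 µM libraries all lay below the 6 others, while its 5 µM libraries overlapped DMSO. It fell by 0.27 ± 0.07 on the log2 scale at 10 µM (adjusted p = 0.0159, edgeR's quasi-likelihood test), and this call was absent when the 5 µM group was left out of the fit and when DMSO replicate 2 or DMSO replicate 3 was left out. RRN3 (chr16:15060022-15094317, minus strand), which bridges the polymerase to the promoter and responds to growth signals, was at 82.02, 92.00 and 88.6 CPM in the DMSO libraries, 103, 106.6 and 101 CPM at 5 µM and 92.1, 112 and 116 CPM at 10 µM. All 6 TP-472 libraries lay above DMSO, the lowest by a narrow margin, and the log2 fold change at 10 µM was 0.28 ± 0.09 (adjusted p = 0.0418) by edgeR's test. TAF1A, TAF1B and TAF1C, the other selectivity-factor subunits, had log2 fold changes of 0.12, -0.14 and 0.23 at 10 µM and were not called with all libraries.

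With all libraries, the 6 nucleolar phosphoproteins and regulators did not pass the test at 10 µM in either direction. edgeR's quasi-likelihood test called 0 higher and 0 lower, with 0 at an unadjusted p under 0.05 and 0 called by DESeq2 or by limma-voom. Beside them, 16.4% of all genes were called higher and 18.0% lower. Without replicate 1 at 10 µM, 1 of the 6 was called higher and 1 lower, beside 23.0% and 25.8% of all genes. This group holds the most abundant members: per kb of transcript, NPM1 (nucleophosmin) stood first of the 40 in DMSO at 1062 CPM per kb and NCL (nucleolin) second at 172 CPM per kb, while POLR1A was last at 4.04 CPM per kb. GNL3 (chr3:52681156-52694492, plus strand), nucleostemin, was at 156, 156 and 152 CPM in the DMSO libraries, 149, 146 and 147 CPM at 5 µM and 176, 159 and 169 CPM at 10 µM. Its 5 µM libraries lay below DMSO and its 10 µM libraries above, and the log2 fold change at 10 µM was 0.12 ± 0.06 (adjusted p = 0.187) by edgeR's test.

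NOLC1 (chr10:102152176-102163871, plus strand), a chaperone of snoRNPs, was at 249, 241 and 242 CPM in the DMSO libraries, 259.8, 254 and 269 CPM at 5 µM and 237, 267 and 254 CPM at 10 µM. The groups overlapped at 10 µM, where the log2 fold change was 0.05 ± 0.07 (adjusted p = 0.603) by edgeR's quasi-likelihood test. DDX21 (chr10:68956128-68985073, plus strand), an RNA helicase that links RNA polymerase I transcription with processing, was at 316, 325 and 316 CPM in the DMSO libraries, 338, 341 and 360.5 CPM at 5 µM and 274, 369 and 368 CPM at 10 µM. Replicate 1 at 10 µM was below every other library and the 5 others with TP-472 were above DMSO, with a log2 fold change at 10 µM of 0.08 ± 0.11 (adjusted p = 0.609) with it and 0.20 ± 0.04 (adjusted p = 0.000222) without it by edgeR's test.

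NPM1 and NCL, given here for their abundance, differed in their order. NPM1 was at 1897, 1887 and 1816 CPM in the DMSO libraries, 1583, 1569 and 1617 CPM at 5 µM and 2107, 1628 and 1755 CPM at 10 µM. The 3 libraries at 5 µM and 2 at 10 µM lay below DMSO and replicate 1 at 10 µM lay above it, and the log2 fold change at 10 µM was -0.03 ± 0.09 with that library and -0.14 ± 0.03 (adjusted p = 0.00164) by edgeR's quasi-likelihood test without it. NCL was at 706, 699 and 677 CPM in the DMSO libraries, 657, 658 and 671 CPM at 5 µM and 670.0, 681 and 713 CPM at 10 µM, with a log2 fold change at 10 µM of -0.01 ± 0.06. The DMSO and TP-472 values of NCL ran into each other at 10 µM. MYBBP1A, a nucleolar co-regulator, had a log2 fold change of -0.05 ± 0.09 at 10 µM and was not called in either fit at that dose.

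Of the 6 core proteins of the snoRNPs, 5 rose at 10 µM: NOP56 and NOP58 of the box C/D particles, which guide methylation, and DKC1, GAR1 and NHP2 of the box H/ACA particles, which guide pseudouridylation. NOP58 (chr2:202265716-202303666, plus strand) was at 109, 106 and 101 CPM in the DMSO libraries, 127, 119 and 122 CPM at 5 µM and 161, 138 and 133 CPM at 10 µM. NOP56 (chr20:2652145-2658393, plus strand) was at 147, 144 and 146 CPM in the DMSO libraries, 172, 181 and 176 CPM at 5 µM and 233, 185 and 188 CPM at 10 µM. DKC1 (chrX:154762742-154777689, plus strand), the pseudouridine synthase, was at 161, 159.7 and 156 CPM in the DMSO libraries, 172, 173 and 169 CPM at 5 µM and 195, 181 and 201 CPM at 10 µM. In all 3 genes the libraries rose in steps with no overlap between the groups. Their log2 fold changes at 10 µM were 0.45 ± 0.08 (adjusted p = 0.00258), 0.47 ± 0.09 (adjusted p = 0.00321) and 0.28 ± 0.06 (adjusted p = 0.00865) by edgeR's quasi-likelihood test. NOP56, NOP58 and DKC1 also host snoRNAs on their own strand.

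GAR1 and NHP2 leaned more on 1 library. NHP2 was at 139, 133 and 127 CPM in the DMSO libraries, 155, 154 and 154 CPM at 5 µM and 261, 157 and 162 CPM at 10 µM, so replicate 1 at 10 µM lay far above the other 8, which themselves kept the stepwise order. The log2 fold change at 10 µM was 0.54 ± 0.17 (adjusted p = 0.0314) with it and 0.26 ± 0.04 (adjusted p = 0.000169) without it by edgeR's test, and 27.4% of the exonic bases of NHP2 are covered by RMND5B on the opposite strand. For GAR1 the values were 0.44 ± 0.14 and 0.24 ± 0.07. FBL, fibrillarin, the methyltransferase of the box C/D particle, went the other way. It was at 244, 230.4 and 218 CPM in the DMSO libraries, 182, 182 and 173 CPM at 5 µM and 244, 163 and 185 CPM at 10 µM, and apart from replicate 1 at 10 µM every TP-472 library lay below DMSO. Its log2 fold change at 10 µM was -0.23 ± 0.13 (adjusted p = 0.207) with that library and -0.41 ± 0.06 (adjusted p = 2.03e-05) without it (edgeR's quasi-likelihood test). Over the 6 genes the median log2 fold change at 10 µM was 0.45 with all libraries and 0.26 without that one.

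Among the 8 small-subunit processing factors, RRP9, PNO1, WDR43, BYSL and RRP12 rose at 10 µM and UTP20, TSR1 and NAT10 were not called. PNO1 (chr2:68157844-68176238, plus strand), which binds the late small-subunit precursor, had the smallest p of the 40 members. It was at 29.3, 29.8 and 29.03 CPM in the DMSO libraries, 36.5, 38.4 and 40.1 CPM at 5 µM and 49.7, 49.9 and 44.5 CPM at 10 µM, that is 29.4 ± 0.387 CPM (SD, n = 3), 38.3 ± 1.80 CPM (SD, n = 3) and 47.99 ± 3.06 CPM (SD, n = 3). The 3 groups were separate and in order of dose. An annotated gene on the opposite strand covers 10.4% of the exonic bases of PNO1. The log2 fold change was 0.38 ± 0.08 (adjusted p = 0.0130) at 5 µM, 0.71 ± 0.08 (adjusted p = 0.000113) at 10 µM and 0.32 ± 0.08 (adjusted p = 0.0318) between the doses, by edgeR's quasi-likelihood test.

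RRP12 (chr10:97356358-97426076, minus strand), needed for the export of both subunits, was at 128, 126 and 129.7 CPM in the DMSO libraries, 147, 152 and 150.3 CPM at 5 µM and 183, 166 and 164 CPM at 10 µM. WDR43 (chr2:28894643-28948222, plus strand), a subunit of the complex that meets the nascent precursor first, was at 90.1, 83.1 and 86.3 CPM in the DMSO libraries, 114, 110.2 and 117 CPM at 5 µM and 99.9, 140.3 and 129 CPM at 10 µM. RRP12 showed the stepwise order, while the WDR43 libraries at 10 µM spread around those at 5 µM, and all TP-472 libraries of both genes lay above DMSO. The log2 fold changes at 10 µM were 0.42 ± 0.07 (adjusted p = 0.00110) and 0.51 ± 0.11 (adjusted p = 0.00677) by edgeR's quasi-likelihood test. RRP9, a protein of the U3 snoRNP, had the largest log2 fold change of the 40 members at 10 µM, 0.77 ± 0.18 (adjusted p = 0.00747) by edgeR's test. Its values were 44.1, 43.1 and 39.1 CPM in the DMSO libraries, 53.4, 54.4 and 49.5 CPM at 5 µM and 97.7, 59.6 and 58.7 CPM at 10 µM, and without the high replicate 1 the log2 fold change was 0.49 ± 0.06 (adjusted p = 1.25e-05) by edgeR's test and still rested on libraries that did not overlap DMSO. BYSL, bystin, had a log2 fold change of 0.47 ± 0.13, or 0.28 ± 0.06 without that library.

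UTP20, a long scaffold protein of the small-subunit processome, changed sign. It was at 70.1, 71.7 and 71.2 CPM in the DMSO libraries, 73.4, 76.7 and 80.1 CPM at 5 µM and 44.5, 81.02 and 82.4 CPM at 10 µM, and its log2 fold change at 10 µM was -0.03 ± 0.19 with replicate 1 and 0.20 ± 0.05 (adjusted p = 0.00377) by edgeR's quasi-likelihood test without it. TSR1, a GTPase-like factor of the late precursor, had a log2 fold change of -0.10 ± 0.08 and NAT10, the acetyltransferase of the small-subunit RNA, of -0.11 ± 0.07, and neither was called in either fit.

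Of the 9 large-subunit assembly factors, NOP2, NOP16, RRS1, PES1, NIP7 and BRIX1 rose at 10 µM. NOP2 (chr12:6556863-6568691, minus strand), a methyltransferase of the large-subunit RNA and a long-known marker of proliferating cells, was at 102, 94.6 and 99.3 CPM in the DMSO libraries, 127, 119 and 125 CPM at 5 µM and 166, 144 and 145 CPM at 10 µM, that is 98.5 ± 3.55 CPM (SD, n = 3), 124 ± 3.97 CPM (SD, n = 3) and 152 ± 12.02 CPM (SD, n = 3). The groups were separate and in order of dose. The log2 fold change was 0.33 ± 0.08 (adjusted p = 0.0241) at 5 µM, 0.62 ± 0.08 (adjusted p = 0.000220) at 10 µM and 0.30 ± 0.08 (adjusted p = 0.0422) between the doses, by edgeR's quasi-likelihood test. In GENCODE 29, 54.4% of its exonic bases are shared with AC006064.6 on the same strand, so reads there could be split between them.

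RRS1, which helps to place the smallest ribosomal RNA in the large subunit, was at 53.3, 52.6 and 52.2 CPM in the DMSO libraries, 73.5, 74.2 and 76.8 CPM at 5 µM and 88.8, 74.6 and 66.7 CPM at 10 µM. It had already risen at 5 µM, where its log2 fold change was 0.50 ± 0.10 (adjusted p = 0.0112), and at 10 µM the value was 0.54 ± 0.10 (adjusted p = 0.00247), both by edgeR's quasi-likelihood test. Its 5 µM and 10 µM libraries overlapped, and the log2 difference between the doses was 0.04 ± 0.10. NIP7 (chr16:69337996-69343111, plus strand), a conserved nucleolar factor of ribosome maturation, was at 83.4, 85.8 and 79.8 CPM in the DMSO libraries, 96.7, 97.01 and 95.2 CPM at 5 µM and 111, 100.3 and 109 CPM at 10 µM, in stepwise order, with a log2 fold change at 10 µM of 0.36 ± 0.07 (adjusted p = 0.00309) by edgeR's quasi-likelihood test. Genes on the opposite strand cover 20.2% of its exonic bases.

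The 3 proteins of the PeBoW complex did not share a call. PES1 had a log2 fold change at 10 µM of 0.41 ± 0.11 (adjusted p = 0.0170), WDR12 of 0.25 ± 0.10 (adjusted p = 0.0668) and BOP1 of 0.05 ± 0.09 (adjusted p = 0.739) (edgeR's quasi-likelihood test). Without replicate 1 at 10 µM the values were 0.26 ± 0.05 (adjusted p = 0.000360) for PES1, 0.16 ± 0.07 (adjusted p = 0.0732) for WDR12 and -0.06 ± 0.05 (adjusted p = 0.324) for BOP1 by the same test, so PES1 was called in both fits and BOP1 lay on either side of 0. NOP16 had 0.59 ± 0.13 and BRIX1 0.33 ± 0.09, both called and both in stepwise order. Without replicate 1 at 10 µM they had 0.40 ± 0.06 and 0.22 ± 0.04, and both were still called. Genes on the opposite strand cover 19.95% of the exonic bases of NOP16 and 9.62% of those of BRIX1. RRP1B, a regulatory partner of the protein phosphatase that acts in the nucleolus, had 0.04 ± 0.14 with all libraries and 0.22 ± 0.06 (adjusted p = 0.00476) without replicate 1 at 10 µM by edgeR's test. Over the 9 genes the median log2 fold change at 10 µM was 0.36, and 0.26 without that library.

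**Figure D2:**
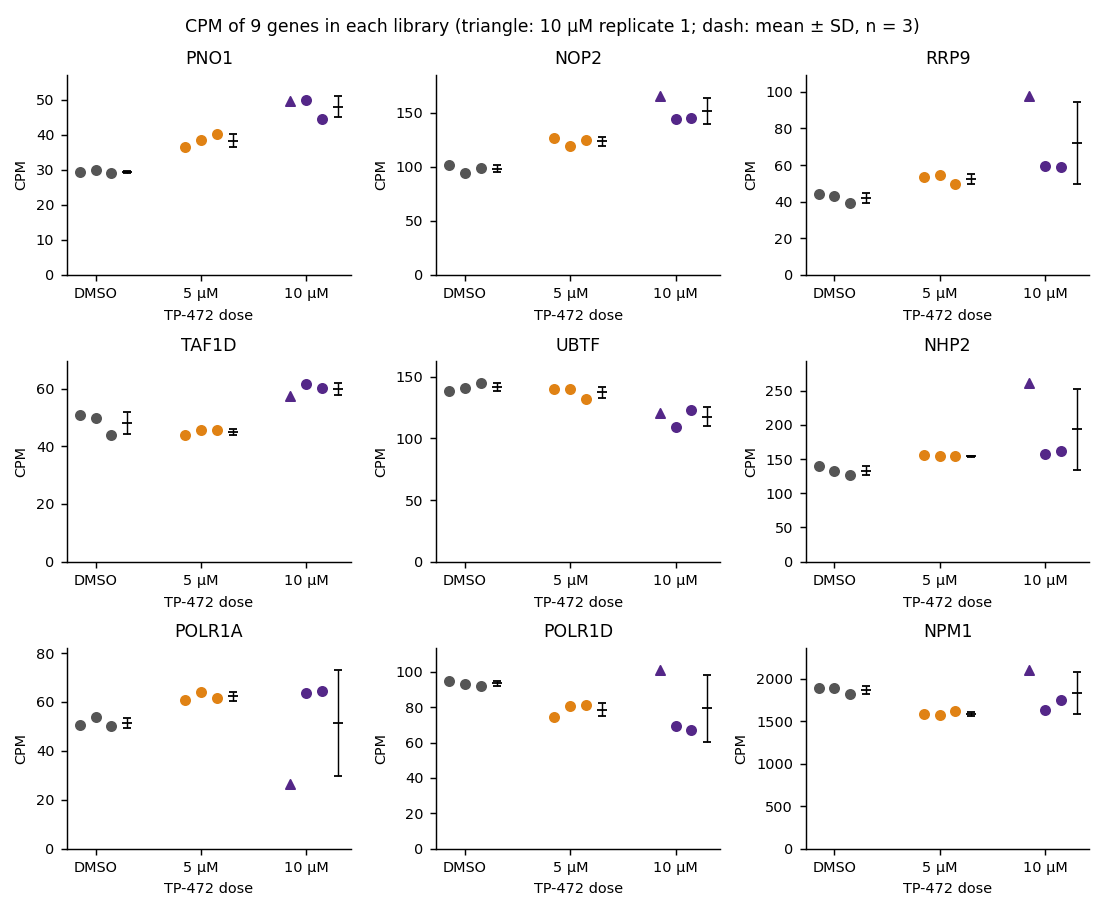
CPM (y axis, from 0) of 9 genes in each library by TP-472 dose (x axis), with circles for libraries, a triangle for 10 µM replicate 1 and a dash with bars for the mean ± SD of 3 libraries. PNO1 and NOP2 climb in separate steps from DMSO to 10 µM, UBTF is lower at 10 µM, and in RRP9, NHP2, POLR1A, POLR1D and NPM1 the triangle lies far from the other 10 µM libraries.

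The deviation of replicate 1 at 10 µM followed transcript length. Over the 40 genes, the log2 ratio of its CPM to the mean of replicates 2 and 3 had a Pearson correlation of -0.74 with the log2 of the longest annotated transcript (Spearman -0.68). The points share 1 library and are genes, not replicates, and over the 15323 genes tested with a length Pearson's value was -0.42. In the 20 shorter members (up to 3038 bases) the ratio was above 0 in 17 genes with a median of 0.30, and in the 20 longer ones it was above 0 in 7 with a median of -0.11. POLR1A, with the longest transcript of the 40 at 12749 bases, had the lowest ratio, -1.28. RNA quality values were not analysed here, and the part of length in the calls was not tested beyond the fits without this library and with a trend for length and GC content removed.

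**Figure D3:**
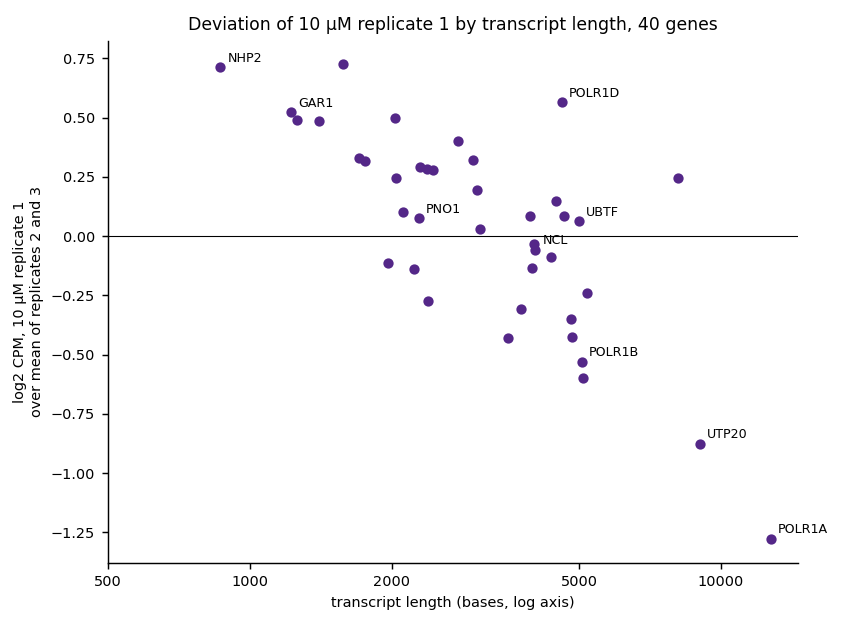
Log2 ratio of CPM in 10 µM replicate 1 to the mean of 10 µM replicates 2 and 3 (y axis) against the length of the longest annotated transcript in bases (x axis, log scale), 1 point for each of the 40 genes. Short transcripts such as NHP2 lie above 0 and long ones such as UTP20 and POLR1A below it, with POLR1D a long transcript that lies above.

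The calls by length moved with this library. At 10 µM against DMSO, edgeR's quasi-likelihood test called 13 of the 20 shorter members higher and 6 of the 20 longer ones (16.4% of all genes). It called 0 and 1 of them lower (18.0% of all genes). Without the library 13 and 12 were called higher (23.0% of all genes) and 2 and 2 lower (25.8%). Shares for short and long genes among all genes are not given here. The median log2 fold change of the shorter members was 0.44 with the library and 0.26 without it, and that of the longer members was 0.06 and 0.20.

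The other genes of the pathway, as 5 lists with none of the 40 members, also had more genes called higher than lower. Values in brackets are log2 fold changes at 10 µM against DMSO, with ± SE where given. Of their 144 genes, edgeR's quasi-likelihood test called 71 higher and 3 lower at 10 µM against DMSO, with a median log2 fold change of 0.30 beside 0.01 for all genes. Without replicate 1 at 10 µM the counts were 89 and 10 and the median 0.22. Of all genes, 16.4% were called higher and 18.0% lower with that library, and 23.0% and 25.8% without it. In the rest of the small-subunit processome 24 of 48 were higher, led by RCL1 (0.85 ± 0.08, adjusted p = 3.35e-05) and NOL6 (0.65 ± 0.07, adjusted p = 0.000118) by edgeR's test. In the rest of large-subunit assembly 30 of 52 were higher, led by GNL2 (0.55 ± 0.07, adjusted p = 0.000241) and PAK1IP1 (0.55 ± 0.07, adjusted p = 0.000403) by edgeR's test, and 1 was lower, GLTSCR2 (-0.55), which is now named NOP53. The remaining polymerase subunits had 5 of 9 higher, with POLR2L (0.85) and TWISTNB, the older symbol of POLR1F (0.29), at the smallest p. The other snoRNP assembly factors had 4 of 11 higher, with NUFIP1 (0.51) and SHQ1 (0.42), and 1 lower, TCOF1 (-0.52 ± 0.06, adjusted p = 0.000167, edgeR's test), which works with UBTF at the ribosomal DNA. That list had, without replicate 1 at 10 µM, 4 higher and 3 lower (TCOF1, PIH1D1 and RUVBL2), and its median log2 fold change went from 0.18 to 0.03. Its lower calls in that fit were near the share of all genes. The exosome and RNase MRP list had 8 of 24 higher, with RPP40 (0.88) and RPP14 (0.49), and 1 lower, EXOSC10 (-0.20), and without that library 13 higher and 3 lower (EXOSC8, EXOSC10 and SKIV2L2), with a median of 0.34 in the first fit and 0.19 in the second. Of the genes named by this rule, POLR2L moved by more than 1.5 times, to 0.56 without that library.

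TCOF1 shared the direction of UBTF and had it at both doses. It was at 239.9, 235 and 232 CPM in the DMSO libraries, 196, 193 and 194 CPM at 5 µM and 163, 171 and 159 CPM at 10 µM, and the 3 groups were separate, with the lowest values at 10 µM. Its log2 fold change at 5 µM was -0.28 ± 0.06 (adjusted p = 0.0189) by edgeR's quasi-likelihood test.

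Neighbouring systems moved to different extents at 10 µM, with log2 fold changes against DMSO again in brackets. Beside them, 16.4% of all genes were called higher and 18.0% lower, or 23.0% and 25.8% without replicate 1 at 10 µM. For RNA polymerase III and its factors 6 of 21 were higher, with BRF2 (0.93) and GTF3A (0.57) at the smallest p. Of the snoRNA host transcripts 6 of 12 were higher, with SNHG1 (0.74) and SNHG12 (1.06). Of the same 12, 5 were higher at 10 µM than at 5 µM, beside 2.87% of all genes. Cytosolic ribosomal proteins had 3 of 79 higher, with RPS19 (0.65) and RPS26 (0.61) at the smallest p, and 1 lower, RPL3 (-0.42). RPS19 was at 0.34 and RPS26 at 0.30 without replicate 1 at 10 µM. This list turned with replicate 1 at 10 µM: its median log2 fold change was 0.14 with the library and -0.13 without it, where 8 were called higher and 46 lower. The medians of the 40 members were 0.24 and 0.23 in these fits, and those of the 5 biogenesis lists ran from 0.18 to 0.34 with the library and from 0.03 to 0.28 without it. Without that library, 9 of the 21 RNA polymerase III genes were called higher, and of the 12 snoRNA hosts 6 were higher and 2 lower.

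In the network of MYC and its partners 2 of 12 were higher and 4 lower at 10 µM against DMSO, with and without replicate 1 at 10 µM. Of all genes, 16.4% were called higher and 18.0% lower with that library, and 23.0% and 25.8% without it. The higher calls of this list thus lay near or below the share of all genes. The log2 fold changes put MXD1 (1.21 ± 0.16, adjusted p = 0.000316) and MAX (0.37) up and MXI1 (-0.79 ± 0.09, adjusted p = 0.000105) and MXD3 (-0.95) down by edgeR's quasi-likelihood test. MXD1, MXI1 and MXD3 encode proteins that pair with MAX and oppose MYC. Without replicate 1 at 10 µM the 4 lower calls were MXI1, MXD3, MNT (log2 fold change -0.40) and MYCN (-3.18). The level of MYCN in each library is not given here. MYC, named after its values were seen, was at 14.8, 13.7 and 14.7 CPM in the DMSO libraries, 10.6, 13.2 and 12.6 CPM at 5 µM and 18.6, 19.98 and 14.4 CPM at 10 µM, with overlap between DMSO and 10 µM. Its log2 fold change was -0.25 ± 0.14 at 5 µM, 0.29 ± 0.14 (adjusted p = 0.123) at 10 µM and 0.54 ± 0.14 (adjusted p = 0.0387) between the doses by edgeR's test. The symbol of the ribosomal RNA precursor, RNA45S5, also named after its values were seen, was at 4509, 3584 and 4208 CPM in the DMSO libraries, 6983, 5142 and 4767 CPM at 5 µM and 3097, 6328 and 9774 CPM at 10 µM. Its libraries at 10 µM spread from below to far above DMSO, with a log2 fold change of 0.64 ± 0.33 (adjusted p = 0.158) by edgeR's test. It was called higher without replicate 1 at 10 µM at both doses, with 0.97 (adjusted p = 7.25e-05) at 10 µM and 0.46 (adjusted p = 0.0182) at 5 µM by edgeR's test. Its reads are shared with the symbols of the mature ribosomal RNAs, whose share of the counts differed between libraries as given above.

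**Figure D4:**
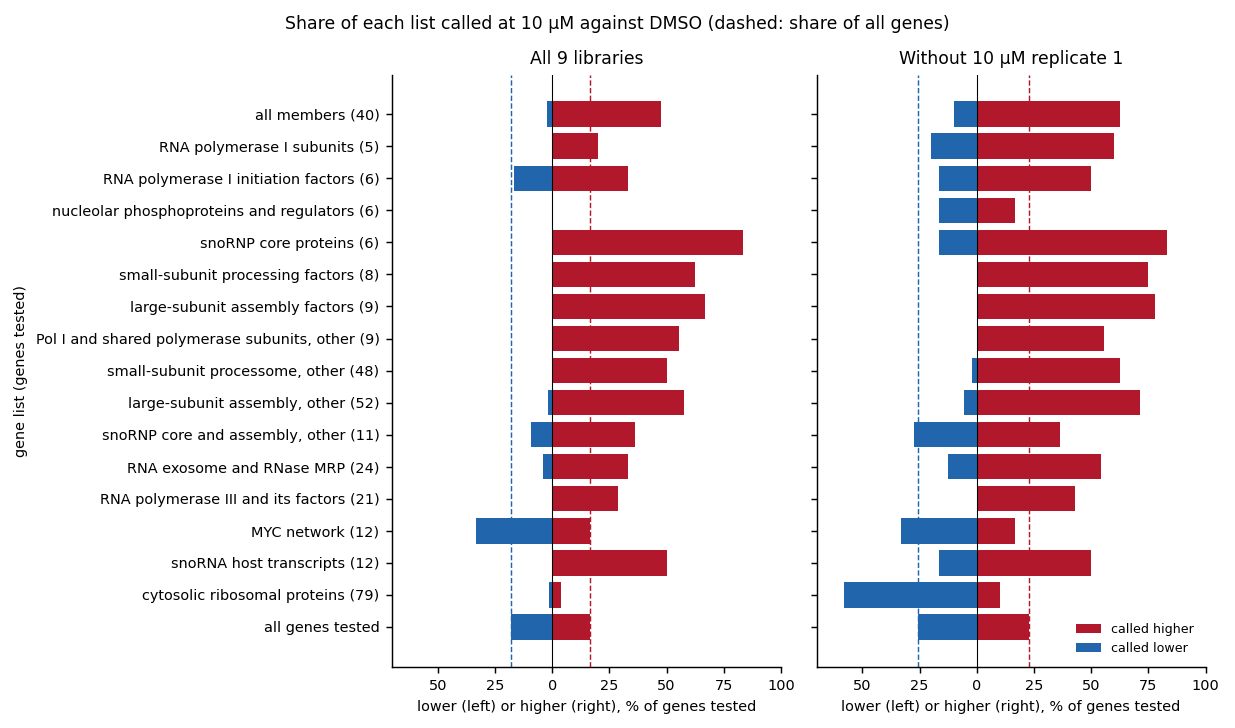
Percent of the genes of each list called higher (right, red) or lower (left, blue) at 10 µM against DMSO, with the number of genes tested in brackets, for all 9 libraries at left and without 10 µM replicate 1 at right; dashed lines mark the share of all genes tested. Most lists reach right of the red line in both panels. The exceptions are the nucleolar phosphoproteins and regulators, the MYC network and the cytosolic ribosomal proteins. The cytosolic ribosomal proteins change from few calls to 46 lower of 79.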

How the data were processed

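RNA from A375 cells in 9 libraries was described. Per the labels and the deposited table, the authors gave RSEM expected counts (estimated counts) per gene symbol, not scaled to library size. The submitters' processing notes name RSEM 1.2.15, Bowtie2 2.1.0 and hg38. Annotation and strand setting were not given in the sources used here. Poly(A) selection stands in the methods and ribosomal RNA depletion in the design text of the series, so which was used is unsettled.

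Counts were rounded to whole numbers and fitted in edgeR 4.0.16 (R 4.3.3) with TMM factors (0.957 to 1.03), filterByExpr, 1 fit of 3 groups and quasi-likelihood F tests, adjusted by Benjamini-Hochberg over 16417 genes. A gene was called at an adjusted p under 0.05. SE was taken as |log2 fold change| over √F. DESeq2 1.42.0 and limma 3.58.1 (voom) were alternatives. The code was tested on simulated data. Tables were made with pandas 2.3.3, scipy 1.17.1 and numpy 2.4.6 in Python 3.11.15. Lengths, coordinates and overlaps are those of GENCODE 29 on GRCh38, with the longest transcript per symbol.

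The members and the lists were chosen with earlier results of these data known, and no list was tested as a set. Values in every library are given for the 3 members of each role with the smallest p at 10 µM, members called between the doses and members against the main direction. Of each other list, the 2 genes per direction with the smallest p among those called at 10 µM are named. POLR1A, NPM1, NCL, NHP2, FBL, RRP9, UTP20, TCOF1 (in each library), MYC, MYCN, MNT, RNA45S5, PIH1D1, RUVBL2, EXOSC8 and SKIV2L2 were added after their values were seen. An exact permutation of 3 against 3 libraries cannot give a p below 0.1, so the tests borrow the spread across genes. Alternatives covered filters, scaling, tools, the groups in the fit, a length and GC trend, the replicate block, a fold limit and leaving out each library.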

Additional observations from a re-analysis of the deposited data

How the results depend on the processing

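The members called higher at 10 µM against DMSO (19 with all libraries) stayed within 1.5 times that count under the other filters, scalings and tools, and numbered 4 with a 1.5-fold limit (2 with that limit and without replicate 1 at 10 µM, a pair of choices made after seeing the data) and 11 to 25 when 1 library was left out, with the low end without DMSO replicate 3 and the high end without replicate 1 at 10 µM. In a fit of only the 2 groups these members numbered 13. The 1 called lower became 2 with a length and GC trend removed, with or without the replicate block, 0 in a fit of only the 2 groups or with the fold limit (with or without replicate 1 at 10 µM), and 0 to 4 with 1 library left out (0 without DMSO replicate 2 or 3, 4 without replicate 1 at 10 µM). At 5 µM against DMSO the 3 called higher became 5 with a filter of 1 CPM, 7 with DESeq2, 24 with only the 2 groups, 10 with the trend removed, 9 with the trend removed and the replicate block (chosen after seeing the data), 0 with the fold limit and 0 to 22 with 1 library left out (0 without any 1 DMSO library or without replicate 3 at 5 µM, 1 without replicate 2 at 5 µM, 22 without replicate 1 at 10 µM). The 0 called lower there became 1 with DESeq2, 3 with only the 2 groups, 2 with the trend removed in either form and 0 to 3 with 1 library left out. Between the doses the 3 called higher became 1 without a filter, 9 with DESeq2, 1 with the replicate block, 0 with only the 2 groups, 7 and 6 with the trend removed without and with the block, 0 with the fold limit and 0 to 12 with 1 library left out (0 without any 1 library at 5 µM, 1 without any 1 DMSO library, 12 without replicate 1 at 10 µM), and the 0 called lower became 1 with DESeq2 and 0 to 2 with 1 library left out. Without replicate 1 at 10 µM, UTP20 turned to 0.20 at 10 µM against DMSO (-0.18 to 0.20 with 1 library left out) and POLR1D to -0.20 between the doses (-0.20 to 0.12). In those fits fewer libraries or groups set the shared spread, and for the other changes the cause was not tested. Calls over all genes, in either direction, moved as well. At 5 µM against DMSO they numbered 1676 of 16417 with the main settings and 2680 of 16417 with DESeq2. With only the 2 groups they were 6331 of 15849, and with the trend removed 3003 of 15323. At 10 µM against DMSO these fits called 5634, 6469, 4318 and 6464 genes, and between the doses 1379, 2462, 335 and 2353. Over all values of single members, 2119 kept their direction and call, 83 lost a call, 124 gained one, 72 without a call changed sign and 2 with a call in 1 of the fits reversed.

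Replicate numbers did not pair the libraries: the correlations between same-numbered libraries were -0.05 to 0.03 and 2 of 9 libraries correlated best with their own number, so the block is an arbitrary one. A trend in length and GC content took up 10.3% of the variance of the deviation of replicate 1 at 10 µM, 4.48% and 5.16% for the other libraries at 10 µM and at most 0.459% elsewhere. Each deviation is from the mean of the library's group, which at 10 µM includes replicate 1. A trend in replicate 1 therefore also enters the values of the other libraries at 10 µM. Those values cannot tell whether the other libraries at 10 µM have a trend of their own. The lowest count of a member in any library was 824, for TAF1B in replicate 1 at 10 µM.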
